A study of Mus musculus with 6 samples.

Results

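The inflammatory CC chemokines and receptors described here are 9 genes, of 55536 in the deposited count table, found by their symbols. They are the ligand genes Ccl2, Ccl3, Ccl4, Ccl5, Ccl7, Ccl8, Ccl12 and Ccl22 and the receptor gene Ccr2. All 9 were among the 15374 genes that passed the filter on low counts. They were chosen by how their levels differed between the groups compared here. Their values and differences are therefore given as a description, with no test.

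RNA was sequenced from 6 orthotopic HCA-1 tumors, 3 from untreated mice (controls 5, 6 and 7) and 3 from mice given the nanoparticles with GOX and DOX (GOX_DOX 1, 2 and 5). HCA-1 is a murine hepatocellular carcinoma line, and it was implanted under the liver capsule of male C3H mice (C3H/HeNCrNarl in the study's methods) aged 6 to 8 weeks. The particle, GOx-DOX-LGP, is a lipid–gelatin–protamine nanogel with the enzyme glucose oxidase in its core and doxorubicin in its shell. The labels give intravenous doses on days 18, 19 and 20 but place the RNA analysis on day 17, after 3 h of circulation. For quantitative PCR, the study's methods give the same dosing days, with tumors harvested on the day after the last dose. They state no harvest day for the sequenced tumors, so the interval between the last dose and sampling is uncertain for these. A tumor grown in the liver from an implanted line can be sampled together with liver tissue, and no group received empty particles, GOx alone or DOX alone in these libraries. Nothing in the labels names the animal behind each library, so errors and p-values measure the spread between these libraries, which may be technical.

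CC chemokines are small secreted proteins that bind G protein-coupled receptors on leukocytes and direct their migration. In inflamed or damaged liver and in tumors, the products of Ccl2, Ccl7 and Ccl12 draw monocytes that carry Ccr2 out of the blood. The products of Ccl3, Ccl4 and Ccl5 attract macrophages, T cells and NK cells, and Ccl22 is a ligand of Ccr4, which regulatory T cells carry.

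The control libraries were not alike. Library totals lay between 15529940 and 18401178 counts, and levels are given as CPM, counts scaled to library size after TMM, a correction for the composition of each library. A count of 3, taken as the smallest level a library could show, corresponded to 0.132 to 0.323 CPM. Across genes, the log2 CPM of control 5 correlated at Pearson r = 0.730 with control 6 and 0.659 with control 7. It correlated at 0.966 to 0.975 with the 3 GOX_DOX libraries. Summed over 12 hepatocyte genes, the level was 607 CPM in control 5, 125127 CPM in control 6 and 209428 CPM in control 7, and it lay between 1344 and 3353 CPM in GOX_DOX tumors. Among them Alb, which encodes serum albumin, was at 353 CPM in control 5, 73804 CPM in control 6 and 128244 CPM in control 7, against 733 to 1893 CPM in GOX_DOX tumors. Controls 6 and 7 thus held far more hepatocyte RNA than the other 4 libraries, and for each of the 9 genes the level in control 5 is set against the treated tumors below. The part of hepatocyte RNA in these differences was not tested. In bulk tissue, fewer cells of a type and less RNA per cell cannot be told apart.

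All 9 genes had higher fitted levels in GOX_DOX tumors. For 8 of them, all but Ccr2, the lowest GOX_DOX library lay above the highest control. Over all genes tested, 8.87% separated in this direction and 8.31% separated in the other. Because the 9 genes were selected on this contrast, nothing is read from that count. Their log2 differences, GOX_DOX minus control, ranged from 0.54 to 2.92 with a median of 1.37, against a median of 0.02 over all genes. The 3 GOX_DOX tumors showed 268 to 534 CPM summed over the 9 genes, and the controls 38.4 to 179 CPM.

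**Figure D1:**
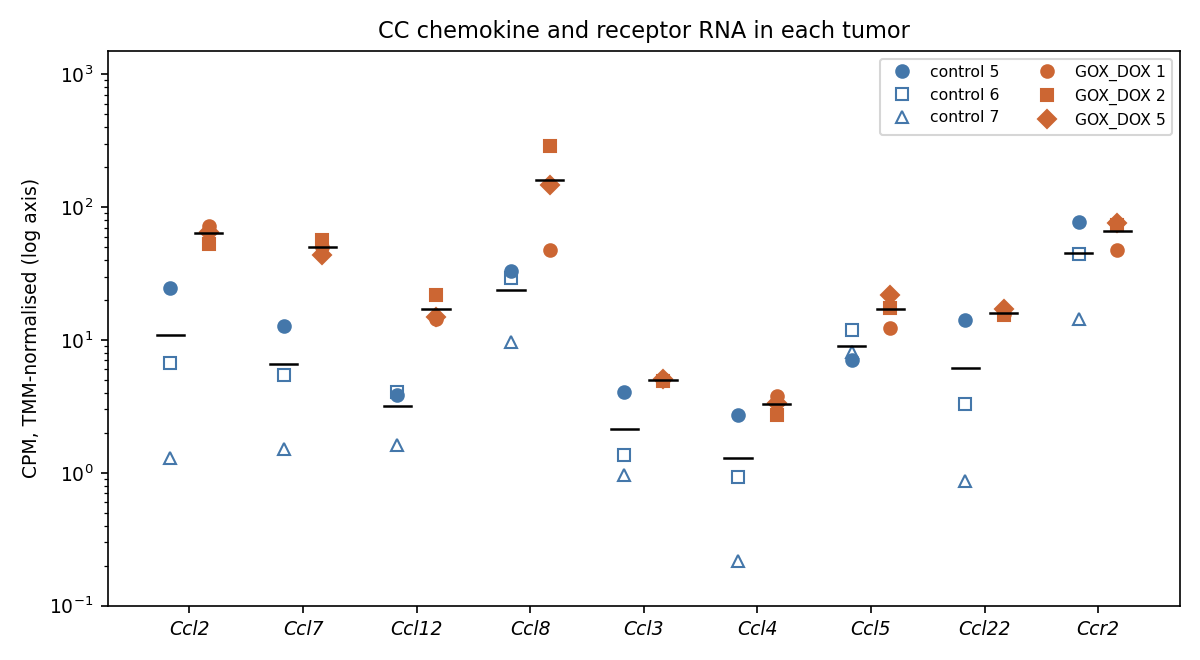
CPM of each gene (log axis) in each library, with controls in blue, GOX_DOX tumors in orange and group means as black bars. Control 5 is the highest control for Ccl2, Ccl7, Ccl8, Ccl3, Ccl4, Ccl22 and Ccr2, and control 6 for Ccl12 and Ccl5.

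The 4 largest differences were those of the Ccr2 ligands Ccl2, Ccl7 and Ccl12 and of Ccl8. Ccl2, the main monocyte chemoattractant, was at 24.5, 6.70 and 1.29 CPM in controls 5, 6 and 7 and at 71.9, 53.1 and 65.2 CPM in GOX_DOX 1, 2 and 5. The treated tumors were close to each other and the controls were 19.0-fold apart. This gave a log2 difference of 2.53 (SE 0.94), and the lowest GOX_DOX level was 2.17 times the highest control level.

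Ccl7, which also binds Ccr2 and acts on Ccr1 and Ccr3 as well, was at 12.7, 5.43 and 1.51 CPM in controls 5, 6 and 7. In GOX_DOX 1, 2 and 5 it reached 49.97, 56.8 and 43.3 CPM. The groups lay well apart, with the lowest GOX_DOX level 3.41 times that of control 5. Its log2 difference of 2.92 (SE 0.72) was the highest of the 9 genes.

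Ccl12, a further Ccr2 ligand of the mouse, was at 3.86, 4.07 and 1.61 CPM in controls 5, 6 and 7 and at 14.3, 21.8 and 14.8 CPM in GOX_DOX 1, 2 and 5. Controls 5 and 6 were close together and control 7 was lower, and all 3 treated tumors lay above the controls. The lowest GOX_DOX level was 3.52 times the highest control, the widest such margin of the 9 genes. The log2 difference was 2.40 (SE 0.43).

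Ccl8, which in the mouse is known as a ligand of Ccr8, was at 32.7, 29.1 and 9.58 CPM in controls 5, 6 and 7. In GOX_DOX 1, 2 and 5 it was at 47.8, 289 and 146 CPM. The treated tumors were spread 6.04-fold, far more than for any other of the 9 genes, with GOX_DOX 2 the highest. GOX_DOX 1 exceeded control 5 only 1.46-fold. The log2 difference was 2.75 (SE 0.78), 2.03 without GOX_DOX 2 and 1.47 in limma voom with sample quality weights. GOX_DOX 2 also had the highest summed level of the 12 macrophage genes, at 1989 CPM against 836 and 1266 CPM in GOX_DOX 1 and 5 and 596 to 905 CPM in controls.

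Ccl2, Ccl7, Ccl12 and Ccl8 lie in 1 cluster on the plus strand of mouse chromosome 11 (GRCm38, GENCODE M21), with Ccl11 between Ccl7 and Ccl12. Ccl2 (ENSMUSG00000035385) spans chr11:82035571-82037453, Ccl7 (ENSMUSG00000035373) chr11:82045712-82047525, Ccl12 (ENSMUSG00000035352) chr11:82101845-82103400 and Ccl8 (ENSMUSG00000009185) chr11:82115185-82116799. Gm17268, which overlaps Ccl2 on the other strand, had 0 counts in all 6 libraries. All 4 genes were higher in the treated tumors, and the sequence just before the start was searched for the genes present in the RefSeq promoter table (GRCm38.p6), which were Ccl12, Ccl8, Ccl3, Ccl22 and Ccr2. The 120 bases before the start are shown for the neighbours Ccl12 and Ccl8, and for Ccl3 as a ligand gene of the other chromosome 11 cluster. Capitals mark TATAAA, the core of a TATA box.

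Ccl12, chr11:82101725-82101844, plus strand: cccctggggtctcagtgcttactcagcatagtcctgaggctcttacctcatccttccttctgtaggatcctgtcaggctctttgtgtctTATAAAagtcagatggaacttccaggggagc
Ccl8, chr11:82115065-82115184, plus strand: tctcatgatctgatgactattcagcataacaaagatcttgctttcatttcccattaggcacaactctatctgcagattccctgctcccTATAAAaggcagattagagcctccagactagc
Ccl3, chr11:83649379-83649498, minus strand: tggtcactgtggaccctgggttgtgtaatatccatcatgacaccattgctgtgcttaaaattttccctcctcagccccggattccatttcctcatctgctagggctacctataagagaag

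TATAAA on the sense strand begins 31 bases before the start of Ccl12 and 32 bases before that of Ccl8, and it is not in the 250 bases before the RefSeq start of Ccl3, Ccl22 or Ccr2. For Ccl22 and Ccr2 the RefSeq start lies inside the GENCODE gene, so these windows hold bases that GENCODE counts as part of the gene. For Ccl3 the RefSeq start lies before the GENCODE start, and the bases between those starts were not searched. The Ccl3 window holds tataag near its end, which differs from TATAAA and was not counted. TATAAA occurs in 7.59% of 32851 promoters of that length. In a global alignment, the windows of Ccl12 and Ccl8 matched at 71 positions (56.8% identity), and the other pairs among the 5 genes at 42.9% to 50.4%. The kB motif, searched on both strands, and the AP-1 motif TGANTCA, which is its own reverse complement, have no match in the 250 bases before the RefSeq start of any of the 5 genes. They are found in 3.9% and 6.75% of all promoters. With only 5 genes searched, nothing is read from that absence, and Ccl2, Ccl4, Ccl5 and Ccl7 were not searched.

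The second group of ligands differed less. Ccl3, a ligand of Ccr1, was at 4.04, 1.36 and 0.969 CPM in controls 5, 6 and 7 and at 5.09, 4.90 and 5.10 CPM in GOX_DOX 1, 2 and 5. The treated tumors were nearly equal, and control 5 was just under them. The log2 difference was 1.21 (SE 0.57), and the mean of the treated tumors was 1.25 times control 5.

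Ccl4, which attracts macrophages and T cells, was at 2.72, 0.933 and 0.215 CPM in controls 5, 6 and 7 and at 3.81, 2.74 and 3.33 CPM in GOX_DOX 1, 2 and 5. The gap between control 5 and GOX_DOX 2 was 1.01-fold, so the groups only just fail to overlap, and control 7 rested on 2 counts. Its log2 difference was 1.28 (SE 0.76).

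Ccl5, which binds Ccr1 and Ccr3 and is made by T cells and NK cells among others, was at 7.06, 11.9 and 8.07 CPM in controls 5, 6 and 7. In GOX_DOX 1, 2 and 5 it was at 12.2, 17.2 and 21.7 CPM. Here control 5 was the lowest control, and control 6 was just under GOX_DOX 1. Its log2 difference was 0.92 (SE 0.33), and the mean of the treated tumors was 2.41 times control 5. The 11 T cell and NK cell genes kept had higher fitted levels in GOX_DOX tumors, with a median log2 difference of 1.21. Their summed level was 182 to 297 CPM in GOX_DOX tumors and 45.2 to 153 CPM in controls. Their part in the difference of Ccl5 was not tested.

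Ccl5 (ENSMUSG00000035042, chr11:83525778-83530518, minus strand), Ccl3 (ENSMUSG00000000982, chr11:83647844-83649355, minus strand) and Ccl4 (ENSMUSG00000018930, chr11:83662584-83664683, plus strand) form a second cluster on chromosome 11. It starts 1220.1 kb after the end of Ccl1, the last family gene of the first cluster, which did not pass the filter. The log2 differences of the genes kept in the first cluster were 2.53, 2.92, 1.74, 2.40 and 2.75 for Ccl2, Ccl7, Ccl11, Ccl12 and Ccl8. In the second they were 0.92, -1.01, 1.66, 1.21 and 1.28 for Ccl5, Ccl9, Ccl6, Ccl3 and Ccl4. The difference between the clusters was not tested, since 7 of these 10 genes were selected on the contrast.

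**Figure D2:**
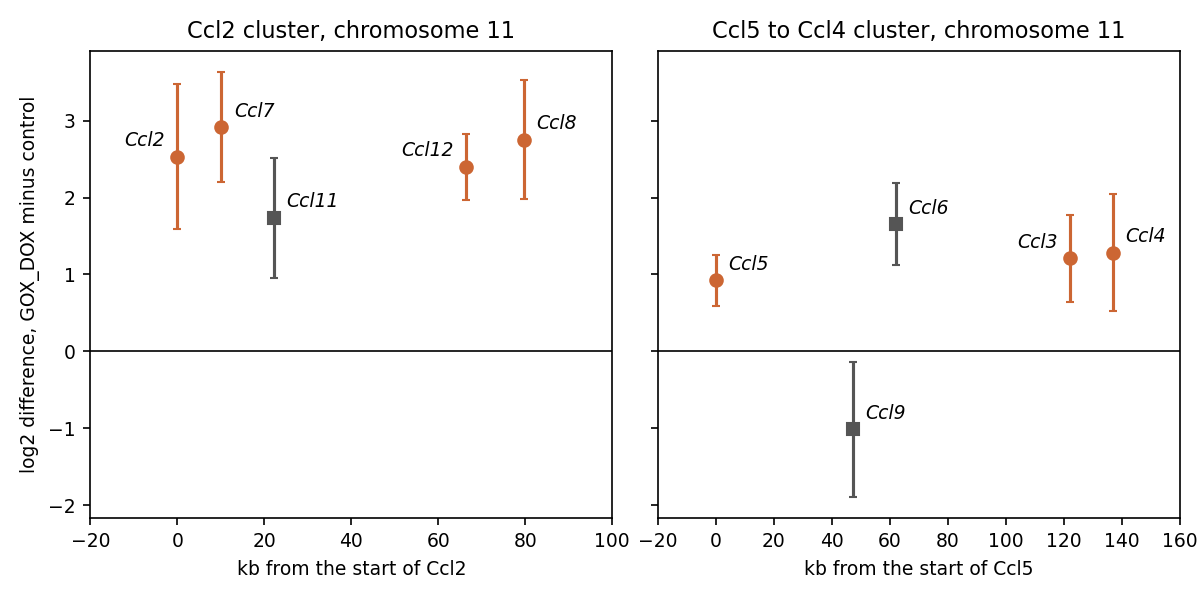
Log2 difference, GOX_DOX minus control, with SE bars, against distance in kb from the start of Ccl2 (left) or Ccl5 (right) for the genes kept in the chromosome 11 clusters. Orange circles are the genes chosen by their difference and grey squares Ccl11, Ccl9 and Ccl6, and Ccl9 at -1.01 is the only one below 0.

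Ccl22 (ENSMUSG00000031779, chr8:94745590-94751699, plus strand), a product of mature dendritic cells and macrophages, was at 14.1, 3.31 and 0.861 CPM in controls 5, 6 and 7 and at 15.6, 15.3 and 17.0 CPM in GOX_DOX 1, 2 and 5. Control 5 was within 1.09-fold of the lowest treated tumor, while controls 6 and 7 were far lower. The log2 difference was 1.37 (SE 0.89), and the mean of the treated tumors was 1.13 times control 5. Of the dendritic cell genes, Flt3 was at 7.28, 3.56 and 0.323 CPM in controls 5, 6 and 7 and at 5.49, 4.16 and 7.23 CPM in GOX_DOX 1, 2 and 5. The summed level of the 10 dendritic cell genes was 55.0 to 187 CPM in controls and 138 to 161 CPM in GOX_DOX tumors, and its part in the difference of Ccl22 was not tested.

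Ccr2 (ENSMUSG00000049103, chr9:124101950-124113557, plus strand), the receptor for the products of Ccl2, Ccl7 and Ccl12, was at 77.0, 44.5 and 14.3 CPM in controls 5, 6 and 7. In GOX_DOX 1, 2 and 5 it was at 47.6, 73.6 and 76.3 CPM. Control 5 was the highest of all 6 libraries and the groups overlapped. Its log2 difference was 0.54 (SE 0.59), and the mean of the treated tumors was 0.855 times control 5. Of its transcript sequence, 1.91% lies in stretches of 50 bases that other genes also hold.

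Compared with each other per transcript length, as RPKM, Ccl8 ranked first and Ccl4 last of the 9 genes in all 6 libraries. The mean of Ccl8 was 46.6 RPKM in controls and 315 RPKM in GOX_DOX tumors. In GOX_DOX tumors Ccl7 (62.4 RPKM), Ccl2 (55.7 RPKM) and Ccl12 (31.6 RPKM) came next, followed by Ccl5 (17.8 RPKM) and Ccr2 (9.74 RPKM), with Ccl22 (6.87 RPKM), Ccl3 (6.57 RPKM) and Ccl4 (4.99 RPKM) lowest. In controls the order behind Ccl8 varied, with Ccl2 in place 2 in control 5 and place 7 in control 7.

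Ligand counts were also set against those of the receptor in the same library, which needs no scaling between libraries. There were 0.32, 0.15 and 0.09 Ccl2 counts per Ccr2 count in controls 5, 6 and 7 and 1.51, 0.72 and 0.85 in GOX_DOX 1, 2 and 5. For Ccl12 the ratios were 0.05, 0.09 and 0.11 in controls and 0.30, 0.30 and 0.19 in GOX_DOX tumors. The ratio of Ccl22, a ligand of Ccr4, to Ccr2 was 0.18, 0.07 and 0.06 in controls and 0.33, 0.21 and 0.22 in GOX_DOX tumors. Each of these ratios to Ccr2 was higher in every treated tumor than in any control. Their genes were selected on this contrast, so nothing is read from that separation. The ratio of Ccl3 to Ccl4 overlapped between the groups, at 1.48, 1.45 and 4.50 in controls and 1.34, 1.79 and 1.53 in GOX_DOX tumors.

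Most of the leukocyte genes listed also had higher fitted levels in GOX_DOX tumors. Whether they varied together with the chemokine genes was not tested. Of 10 pan-leukocyte genes, 9 had a positive log2 difference, with a median of 0.82, and their summed level was 491 to 885 CPM in controls and 906 to 1236 CPM in GOX_DOX tumors. Ptprc, which encodes CD45, was at 116, 69.2 and 39.3 CPM in controls 5, 6 and 7 and at 90.8, 115 and 116 CPM in GOX_DOX 1, 2 and 5. Counts of each chemokine were therefore also expressed per 1000 counts of the 10 genes.

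On this scale Ccl2, Ccl7, Ccl8 and Ccl12 remained higher in every GOX_DOX tumor than in any control. The share of all genes separate is not given for this scale or the macrophage one below, so nothing is read from the separation. Lcp1 weighed unevenly in the 10 genes, at 226 of the summed 491 CPM in control 7 and 248 of 885 CPM in control 5. Its part in these values was not tested. Ccl2 was at 27.7, 10.8 and 2.63 per 1000 in controls 5, 6 and 7 and at 79.3, 43.0 and 58.9 in GOX_DOX 1, 2 and 5. Ccl7 was at 14.3, 8.79 and 3.07 per 1000 in controls and at 55.2, 45.9 and 39.1 in GOX_DOX tumors. Both were separate between the groups by narrower margins than in CPM.

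Ccl12 was at 4.36, 6.59 and 3.29 per 1000 in controls and at 15.8, 17.6 and 13.4 in GOX_DOX tumors. Ccl8 was at 37.0, 47.1 and 19.5 per 1000 in controls and at 52.8, 234 and 131 in GOX_DOX tumors, so GOX_DOX 1 was close to control 6. For Ccl3, Ccl4, Ccl5, Ccl22 and Ccr2 the groups overlapped on this scale, with log2 differences of 0.76, 1.14, 0.18, 1.45 and 0.08. Per 1000 counts of the 12 macrophage genes, Ccl7, Ccl8 and Ccl12 were still separate, and Ccl2 overlapped, with 26.7 in GOX_DOX 2 against 27.9 in control 5.

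**Figure D3:**
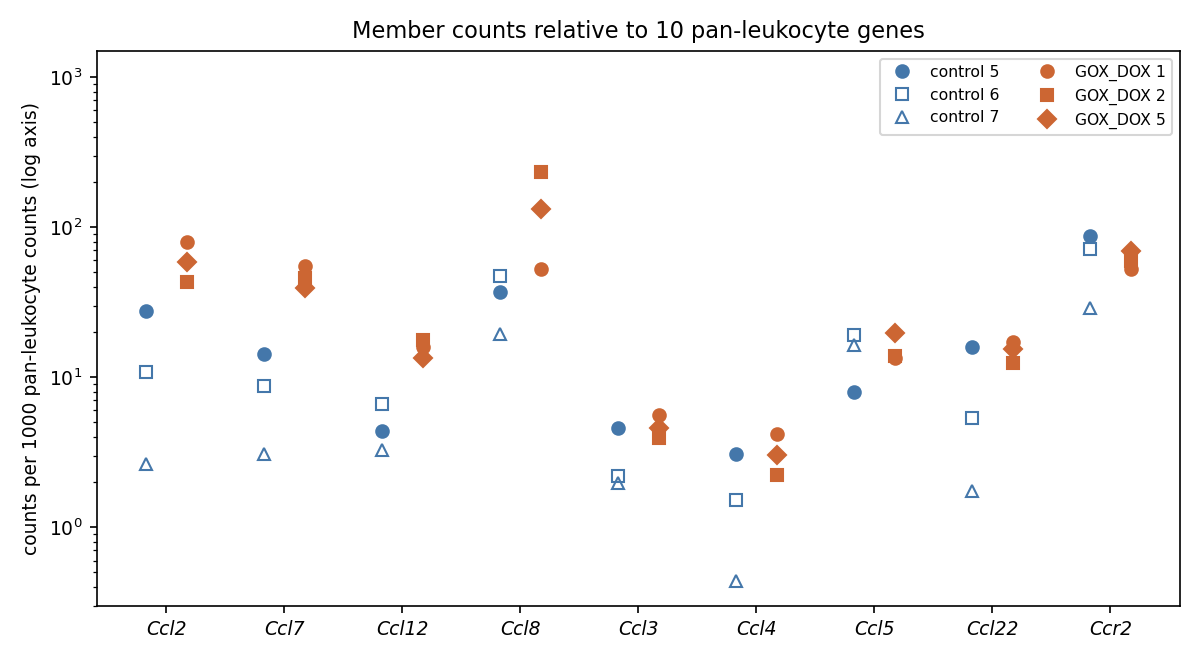
Counts of each gene per 1000 counts of the 10 pan-leukocyte genes (log axis), with controls in blue and GOX_DOX tumors in orange. The groups are separate for Ccl2, Ccl7, Ccl12 and Ccl8 and overlap for the other 5 genes, for example Ccl5 at 7.98 to 19.2 in controls and 13.5 to 19.6 in GOX_DOX tumors.

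The lists of myeloid and stromal cells gave the following values. Of 12 monocyte genes, 11 had a positive log2 difference (median 0.94). Their summed level was 157 to 525 CPM in controls and 463 to 952 CPM in GOX_DOX tumors, and Ly6c2, a marker of the monocytes that carry Ccr2, was at 3.95, 7.97 and 5.49 CPM in controls and at 4.597, 14.01 and 8.17 CPM in GOX_DOX tumors. Of 12 macrophage genes, 9 were positive (median 0.90), and Adgre1, which encodes F4/80, was at 40.5, 44.0 and 28.9 CPM in controls and at 27.8, 106 and 50.8 CPM in GOX_DOX tumors. Of 10 neutrophil genes, 6 passed the filter, and their summed level was 8.29 to 22.7 CPM in controls and 19.2 to 68.8 CPM in GOX_DOX tumors. Of 10 fibroblast and stellate cell genes, 7 were positive (median 0.25), while 9 of 10 endothelial genes were negative (median -1.24). The mean log2 CPM of the endothelial list was 3.50 in control 5, 4.72 in control 6 and 4.84 in control 7, and 2.94 to 3.29 in GOX_DOX tumors. The 10 proliferation genes summed to 1145, 316 and 51.2 CPM in controls 5, 6 and 7 and to 797 to 1003 CPM in GOX_DOX tumors. The part of these cell types in the chemokine differences was not tested.

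**Figure D4:**
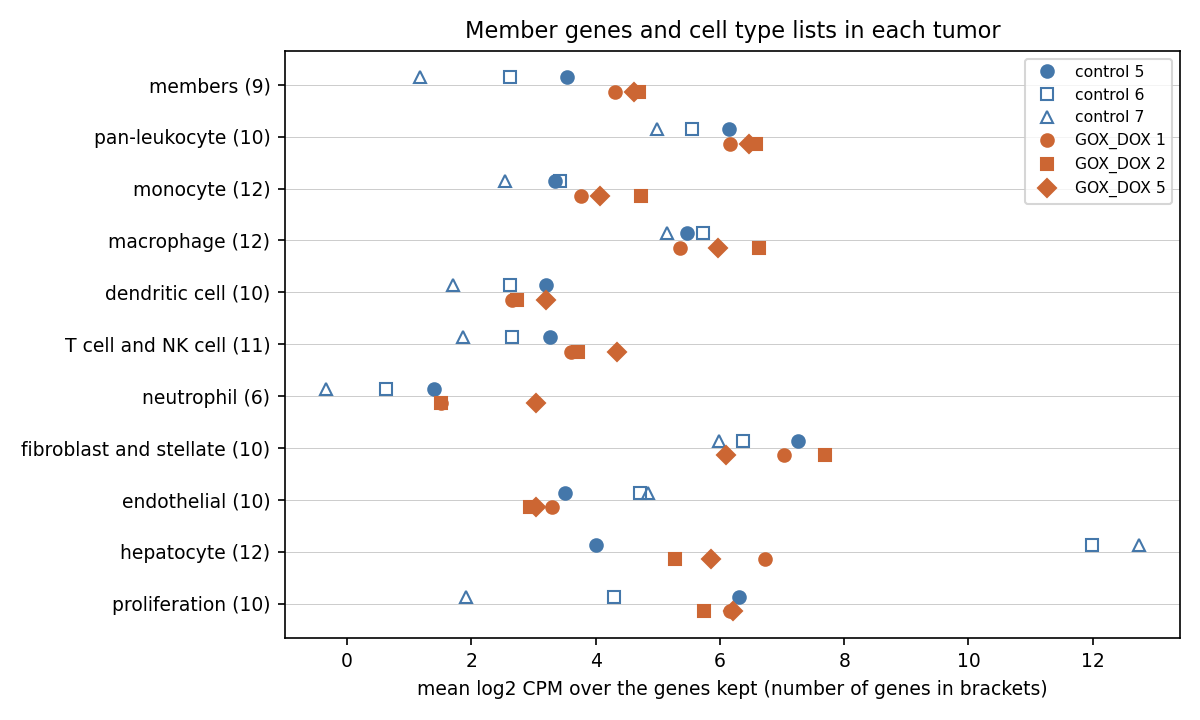
Mean log2 CPM over the genes kept of each list (number in brackets) in each library, with controls in blue and GOX_DOX tumors in orange. The chemokine genes are higher in all 3 GOX_DOX tumors, while the hepatocyte list puts controls 6 and 7 (11.98 and 12.74) apart from control 5 and the GOX_DOX tumors (4.0 to 6.73).

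The rest of the family was listed by family membership and tested in the fit over all genes. It is what remained once the 9 genes had been chosen by their difference. Its counts of calls therefore depend on that choice, and nothing is read from them. Of 15 other CC ligand genes matched to an identifier, 7 passed the filter, and of 14 other receptor genes 9 did. None of the 16 had an adjusted p under 0.05 in edgeR's quasi-likelihood test, in which 0% of 15374 genes had one. At an unadjusted p under 0.05 there were 3 of the 16, against 17.5% of all genes. DESeq2 called 0 of these genes, against 9.43% of the genes it gave an adjusted p. limma voom with sample quality weights called 11 of 16, against 60.2% of all genes.

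Ccl6, a myeloid chemokine that binds Ccr1, was at 62.3, 26.5 and 20.0 CPM in controls 5, 6 and 7 and at 94.3, 169 and 79.7 CPM in GOX_DOX 1, 2 and 5. The groups did not overlap, and the log2 difference was 1.66 (SE 0.53), with an unadjusted p of 0.0198 and an adjusted p of 0.247 in edgeR. The exact two-sided permutation test gave p = 0.1, the smallest it can give with 3 against 3. Ccl6 overlaps E230016K23Rik on the other strand, and since the strand setting of the counting is not given in the sources used here, their reads cannot be told apart.

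Ackr2, a decoy receptor that takes up inflammatory CC chemokines without signalling migration, was at 2.33, 4.92 and 3.98 CPM in controls 5, 6 and 7. In GOX_DOX 1, 2 and 5 it was at 1.68, 1.62 and 1.61 CPM. It was lower in all 3 treated tumors, with a log2 difference of -1.18 (SE 0.37), an unadjusted p of 0.0189 and an adjusted p of 0.247 in edgeR. The exact permutation test again gave p = 0.1. Its log2 difference was -0.74 with the hepatocyte list as a covariate and -0.55 when scaled by library totals.

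Ccl21a, a lymphoid chemokine and Ccr7 ligand, was at 1.40, 3.56 and 0.969 CPM in controls and at 0.346, 0.784 and 0.104 CPM in GOX_DOX tumors. Its levels were low and lower in all treated tumors, with a log2 difference of -2.24 (SE 0.82) and an adjusted p of 0.254 in edgeR, and 71.6% of its transcript lies in stretches shared with other genes such as Ccl21b. Ccl25, a ligand of Ccr9, was at 6.27, 8.82 and 8.72 CPM in controls and at 5.34, 3.97 and 5.98 CPM in GOX_DOX tumors. The treated tumors were slightly lower, with a log2 difference of -0.64 (SE 0.30) and an adjusted p of 0.329 in edgeR, and the gene overlaps Elavl1 on the other strand. Scaled by library totals, its log2 difference was -0.04.

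Ccr1, a receptor for Ccl3, Ccl5 and Ccl7, overlapped between the groups. It was at 47.7, 9.24 and 2.37 CPM in controls 5, 6 and 7 and at 43.0, 68.8 and 48.9 CPM in GOX_DOX 1, 2 and 5, with a log2 difference of 1.43 (SE 0.98). Control 5 lay among the treated tumors, and the adjusted p was 0.451 in edgeR.

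Ccr8, a receptor of regulatory T cells, was at 1.54 CPM in control 5, had 0 counts in controls 6 and 7, and was at 1.38, 0.784 and 0.832 CPM in GOX_DOX tumors. Ccl17, the other ligand of Ccr4, was at 5.88, 0.678 and 0.108 CPM in controls and at 4.30, 3.92 and 2.60 CPM in GOX_DOX tumors, so control 5 was the highest library for both. Their adjusted p was 0.730 and 0.740 in edgeR. Ccr4 and Ccr3 did not pass the filter. Ccr4 had 2, 0 and 2 counts in controls and 3, 9 and 6 in GOX_DOX tumors, and Ccr3 had 10, 15 and 16 in controls and 5, 7 and 4 in GOX_DOX tumors. The remaining 8 family genes kept, Ccl9, Ccl11, Ccl24, Ccr6, Ccr7, Ccr9, Ccrl2 and Ackr1, had log2 differences from -2.34 (Ackr1) to 1.74 (Ccl11), and all overlapped. With the hepatocyte list as a covariate, Ackr1 was at -0.32 and Ccl9, at -1.01 without it, was at 0.90. Without control 5 the log2 difference of Ccl17 was 3.13 and that of Ccr1 3.21.

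**Figure D5:**
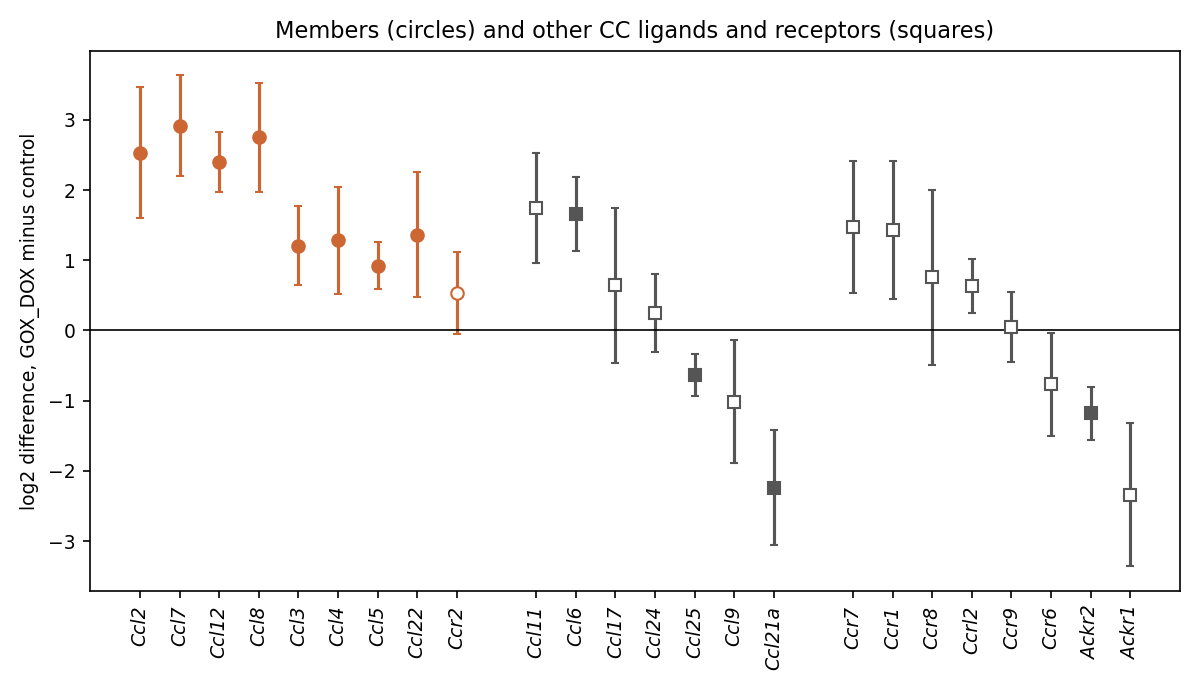
Log2 difference, GOX_DOX minus control, with SE bars, for the 9 genes chosen by their difference (orange circles) and 15 other CC ligand and receptor genes kept (grey squares). Filled symbols have no overlap between the groups, and the 9 chosen genes lie between 0.54 and 2.92 while the others lie between -2.34 and 1.74. The 9 genes were chosen by their difference, so nothing is read from these ranges.

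Leaving out control 5 made 8 of the 9 differences larger, all but that of Ccl5. The log2 difference of Ccl2 was then 3.98, that of Ccl7 3.84, that of Ccl3 2.13, that of Ccl4 2.48, that of Ccl22 2.93 and that of Ccr2 1.19, and the groups were separate for all 9 genes. Without control 5, 36.8% of all genes were higher in GOX_DOX tumors with no overlap, and edgeR called 47.7% of all genes and 12 of 18 other family genes. With control 7 left out, the log2 difference of Ccl4 was 0.82, that of Ccl22 0.86 and that of Ccr2 0.11. Leaving out any 1 library gave log2 differences of 2.46 to 3.84 for Ccl7 and 2.09 to 2.60 for Ccl12. The log2 difference of Ccl5 was 1.49 when scaled by library totals and 0.31 in limma voom with sample quality weights.

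Against control 5 alone, the control poorest in hepatocyte RNA, the mean of the 3 GOX_DOX tumors was 4.91 times for Ccl8, 4.39 times for Ccl12, 3.95 times for Ccl7 and 2.59 times for Ccl2. It was 2.41 times for Ccl5, and 1.25, 1.21 and 1.13 times for Ccl3, Ccl4 and Ccl22. These ratios rest on a single control library and have no error. With the hepatocyte list as a covariate the log2 differences were 2.03 for Ccl2, 2.40 for Ccl7, 2.17 for Ccl12 and 2.26 for Ccl8. They were 0.75 for Ccl3, 0.84 for Ccl4, 1.10 for Ccl5, 0.84 for Ccl22 and 0.03 for Ccr2. The ligands of the first cluster were above the others in this fit, but not in all. In limma voom with sample quality weights, Ccl8 at 1.47 and Ccl12 at 2.04 were below Ccl22 at 2.40.

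The signalling machinery downstream of chemokine receptors was described by a list of 20 genes, all kept. Of these, 19 had a positive log2 difference (median 0.56), 4 were higher with no overlap (8.87% of all genes were) and 2 had an unadjusted p under 0.05 in edgeR (17.5% of all genes had one). Rgs1, which limits G protein signalling, was at 9.87, 11.2 and 11.2 CPM in controls 5, 6 and 7 and at 11.96, 25.5 and 36.4 CPM in GOX_DOX 1, 2 and 5, with a log2 difference of 1.19 (SE 0.42) and an adjusted p of 0.247. Rac2, a GTPase of leukocyte migration, was at 33.7, 29.7 and 18.6 CPM in controls and at 44.4, 54.9 and 58.6 CPM in GOX_DOX tumors, with a log2 difference of 0.94 (SE 0.28) and an adjusted p of 0.247. Both were higher in all 3 treated tumors. Pik3r5, a regulatory subunit of PI3K gamma, overlapped, with a log2 difference of 1.01 (SE 0.54) and an adjusted p of 0.364.

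Several of the ligands are known targets of NF-kB. Of 16 other NF-kB response genes, 11 had a positive and 5 a negative log2 difference (median 0.50), and none was separate between the groups, where 8.87% of all genes were separate and higher and 8.31% separate and lower. With 16 genes, nothing is read from that 0. Cd83 was at 17.1, 7.89 and 3.66 CPM in controls 5, 6 and 7 and at 12.2, 27.3 and 21.7 CPM in GOX_DOX 1, 2 and 5. Nfkbiz had a log2 difference of 0.83 (SE 0.49), with 68.9 CPM in control 5 against 68.4 to 78.8 CPM in GOX_DOX tumors. Sod2, which hepatocytes also express, was at 38.7, 202 and 309 CPM in controls 5, 6 and 7 and at 43.6, 48.7 and 50.9 CPM in GOX_DOX tumors, with a log2 difference of -1.94 (SE 0.70) and an adjusted p of 0.252 in edgeR. The part of hepatocyte RNA in the difference of Sod2 was not tested. The adjusted p of Cd83 was 0.377 and that of Nfkbiz 0.394 in edgeR.

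Genes with profiles most like these were ranked over the 6 libraries by the root mean square distance of centred log2 CPM, among 14060 genes. For Ccr2 the nearest were Mfng, Rasgef1a, Dpf1, Mdm1 and Rnase6, at distances of 0.12 to 0.17. For the mean of the 8 ligands they were Cd14, Scd2, Adora2b, Crip1 and Gm11110, at 0.19 to 0.24. Cd14, a co-receptor for lipopolysaccharide on monocytes and macrophages, was at 51.7, 24.8 and 10.7 CPM in controls 5, 6 and 7 and at 75.4, 98.3 and 94.4 CPM in GOX_DOX 1, 2 and 5. It was higher in every treated tumor, with control 5 nearest to them. Because the 8 ligands were selected on this contrast, a gene ranked near their mean shows the same pattern by construction. Nothing is read from that likeness.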

How the data were processed

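The authors deposited raw counts per gene, not normalized and not pooled, and a second table of signal values, in which each library's counts were divided by its own size factor (0.532 to 1.322). The study's methods name TopHat and HTSeq. The submitters' processing notes list Trimmomatic 0.38, HISAT2 2.1.0 and featureCounts 2.0.0. Which made the counts, and the build, annotation and strand setting, are not given in the sources used here.

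The raw counts were analysed in R 4.3.3 with edgeR 4.0.16 (default filter, TMM, quasi-likelihood test over all 6 libraries, Benjamini-Hochberg adjustment over 15374 genes, threshold 0.05), after a test on simulated data. CPM values are counts scaled to TMM library sizes, log2 CPM for profiles used a prior count of 2, and RPKM used GENCODE M21 exon lengths. DESeq2 1.42.0 and limma 3.58.1 (voom) were alternatives, with other scalings, filters and libraries left out. Exact permutation tests were two-sided.

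The 9 genes, the gene lists and the tests were chosen with earlier results of these data known. By rule, all 9 genes are named, other family genes with no overlap or an unadjusted p under 0.05, the receptors and Ccl17, the 3 largest differences of the signalling and NF-kB lists, examples of the cell type lists and the 5 nearest profiles for Ccr2 and for the mean ligand. Ccl21c matched no identifier. A gene that the rule selects is counted in the family totals but not reported here.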

Additional observations from a re-analysis of the deposited data

How the results depend on the processing

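No gene had an adjusted p under 0.05 in edgeR over all 6 libraries, and that count was also 0 under every other scaling, filter and covariate tried in edgeR. DESeq2 called 1680 genes and limma voom with sample quality weights 9254, and leaving out 1 library gave 0 to 7745, the latter without control 5. Among the other CC ligand and receptor genes limma voom called 11, and leaving out 1 library gave 0 to 12, again without control 5. The cause was not tested. All 144 log2 differences of the 9 genes under the alternatives were positive, and 10 of them moved by more than the spread between replicates. Scaling by library totals moved the median of all genes from 0.02 to 0.51 and left 7 of the 9 genes without overlap. The share of all genes separate under that scaling is not given here, so nothing is read from that count. No paired analysis was possible because the groups share only the number 5. With 3 libraries a group, one of them unlike the other controls, differences below the spread of controls could not be detected, and Ccl4 and Ccr8 in controls 6 and 7 rest on few or 0 counts.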
